A study of Mus musculus with 3 samples.

Results

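Basal keratin cells of mouse mammary tumours were compared by their distance from fibroblasts. Members were chosen by their measured shares of Krt5, Krt14, Krt15 and Col1a1 and by position. A cell with at least 20 panel transcripts counted as a basal keratin cell when Krt5, Krt14 and Krt15 together made up at least 10% of its transcripts and Col1a1 less than 15%. It counted as a fibroblast when Col1a1 reached 15% and the keratins stayed under 10%. Basal keratin cells with a fibroblast centre within 25 µm formed the near arm, and those with none within 75 µm formed the far arm. Of 1963273 segmented cells, 1760476 had at least 20 transcripts and 26141 of these were basal keratin cells. The near arm held 14834 cells and the far arm 657, and 10650 lay at distances in between and entered neither arm. The fibroblasts numbered 116204, and 926 cells that passed both gates belonged to neither class.

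The cells came from sections of 3 distinct mammary tumours of MMTV-PyMT mice, labelled WT, in which the mouse mammary tumour virus promoter drives the polyoma middle T antigen in the mammary epithelium. All 3 tumours carry the transgene and none was treated. The labels state neither what WT refers to nor the age or strain of the mice. Nor do they state whether the tumours came from separate animals, so the replicates of each test are these 3 tumours. Formalin-fixed, paraffin-embedded sections were read by MERSCOPE, an imaging method that counts single RNA molecules with combinatorial barcodes and assigns them to segmented cells, for 258 genes and 27 blank codes that match no gene. The labels give centres and volumes without a unit, and µm was taken.

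The mammary duct has an inner luminal layer and an outer basal layer of myoepithelial cells, which carry Krt5, Krt14 and the transcription factor Trp63, contract through smooth muscle proteins and sit on the basement membrane next to the stroma. Tumours of this model are mainly luminal, and keratin-positive basal cells are known for lying at the border of tumour nests and for leading collective invasion. Fibroblasts of the tumour stroma secrete collagen and matricellular proteins and are known as a source of growth factors. The interferon response is a further programme of tumour cells, in which the factor Irf7 and effectors such as Mx1, Ifit1 and Isg15 are switched on through a shared promoter element.

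The gate keratins are a description of the choice and were not tested. Krt5 made up 157, 117 and 147 of every 1000 panel transcripts in near cells of tumours 1, 2 and 3 and 152, 98.6 and 137 in far cells. Krt14 stood at 25.3, 41.3 and 18.2 per 1000 near and 20.8, 69.5 and 20.3 far, and Krt15 at 8.53, 3.13 and 13.0 near and 11.3, 5.81 and 12.3 far. Both arms therefore held a Krt5-led cell, with the most Krt14 in tumour 2. Trp63, which the gate did not use, stood at 4.0, 5.49 and 3.72 per 1000 in near basal keratin cells and at 1.29, 2.05 and 1.02 in other tumour cells near fibroblasts (kept cells in neither class, with under 5% of transcripts from 9 endothelial, pericyte, macrophage and class II markers, so that other cell types of the stroma can remain among them). Mylk, the myosin kinase of contractile cells, stood at 4.46, 3.18 and 3.51 against 1.66, 1.36 and 1.75 in the same 2 classes. Both comparisons are of near cells alone. In far basal keratin cells Mylk was lower in each tumour, and in tumour 2 it was lower than in those other tumour cells.

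**Figure D1:**
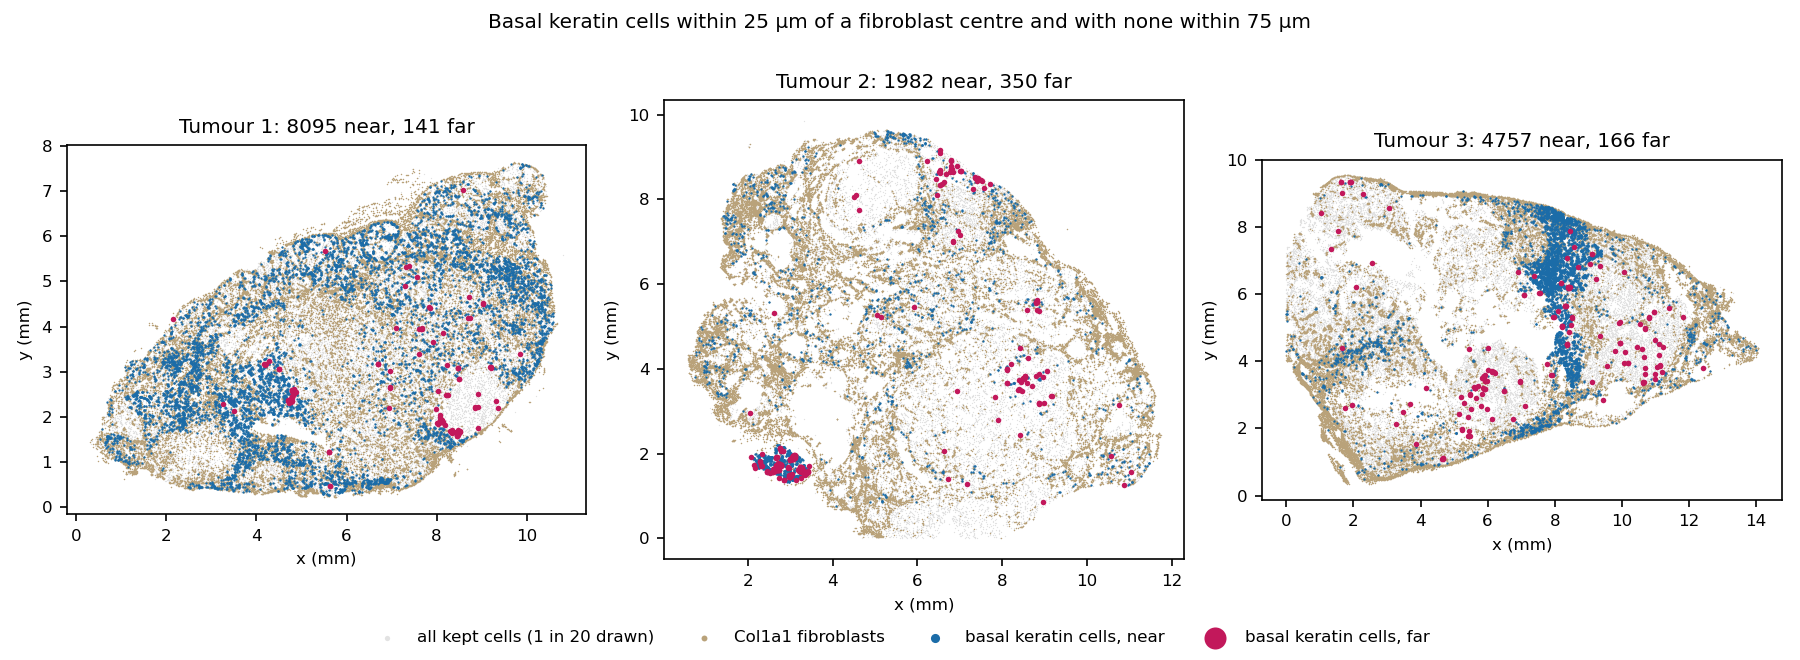
Cell positions in the 3 sections, x and y in mm. Grey points are kept cells (1 in 20 drawn), tan points fibroblasts, blue points near basal keratin cells and large magenta points far ones. The far cells are few (141, 350 and 166) and lie most densely at the lower left of tumour 2, while near cells cover much of tumour 1 and form a vertical band in tumour 3.

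Basal keratin cells lay next to fibroblasts more often than other tumour cells did. In tumours 1, 2 and 3, 66.2%, 39.7% and 53.3% of them were near, against 48.5%, 36.2% and 28.8% of other tumour cells, and 1.15%, 7.01% and 1.86% were far, against 4.43%, 17.2% and 23.5%. The near share averaged 53.1% ± 13.2 (SD, n = 3) against 37.8% ± 9.94, and the far share 3.34% ± 3.20 against 15% ± 9.71. Both differences ran the same way in 3 of 3 tumours. A two-sided exact permutation test over the 3 pairs gave p = 0.25 for each of the 2 shares and 0.25 after adjustment, the smallest value it can give, so the design cannot pass 0.05. Cells just below the keratin limit (9 to 10% of transcripts) were near in 63.8%, 56.1% and 51.0%. A high near share was therefore not particular to cells past the keratin limit.

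The far arm was small, and in tumours 1 and 2 a larger share of its cells than of near cells lay in the fullest squares. In squares of 500 µm side, the fullest square held 23.4%, 30% and 9.64% of the far cells of tumours 1, 2 and 3, against 2.06%, 9.33% and 7.53% of the near cells. The fullest 3 squares held 50.4%, 62.0% and 19.3% of the far cells and 5.55%, 22.3% and 19.0% of the near cells, so that in tumour 3 the shares were alike. The far cells of tumours 1, 2 and 3 lay in 36, 45 and 70 squares and the near cells in 218, 241 and 240. Only 33, 34 and 45 squares held cells of both arms. The sums behind each level were 1070253, 246657 and 476677 transcripts near and 15608, 36824 and 17130 far, so far levels are the less precise. A near cell had a median of 116, 94.0 and 85.0 transcripts and a far cell 102, 74.0 and 71.5. An endothelial cell (by its marker genes) lay within 25 µm of 22.4%, 8.63% and 5.13% of near cells and of 10.6%, 3.14% and 1.81% of far cells. The part of depth and of endothelial neighbours in the results was not tested by these values. No cell identifier was shared between tumours.

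Near and far sums were compared with edgeR's quasi-likelihood test, with the tumour as a block, in the 249 genes outside the gate that passed the filter on low counts. After Benjamini-Hochberg adjustment 7 genes fell near fibroblasts, 2.81% of those tested, and 0 rose, where 12 were higher and 19 lower at an unadjusted p under 0.05 (31 genes, 12.4%). DESeq2 called 0 genes in either direction. The 7 were the interferon genes Mx1, Ifit1 and Irf7, the epidermal and progenitor factor Klf4, the phospholipid-binding protein Anxa1, the Wnt feedback gene Axin2 and the collagenase Mmp13. The median log2 near over far of all 249 genes was -0.08. A typical 95% interval of this fit reached 0.78 to either side on the log2 scale before adjustment, and smaller differences could go undetected. The interval rests on a spread shared across genes, so it does not give the precision of a gene's own 3 pairs. Larger differences could also fail to pass, as did Isg15 at -1.18. In sums simulated with the same library sizes and a common spread, the test recovered 6 of 24 changes of 2-fold and 24 of 24 of 4-fold. The simulation gave every gene the same spread, as the fit assumes, and held no patches of cells. It therefore cannot show how well changes of either size are recovered from the measured sums.

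These calls were not stable. Without the tumour block 0 genes passed, and without tumour 2 or without tumour 3 0 genes passed, while 6 fell without tumour 1, among them 5 of the 7. Of 26 alternative settings 8 gave any call. The 7 genes kept a value below 0 wherever they were tested, except under 3 of the settings: a far limit of 150 µm (5 of 7 below 0), a ring of 25 to 75 µm in place of the far arm (5 of 7) and equal cells per square (3 of the 5 tested). In the model of this comparison every gene was given a common spread, with no gene-specific part estimated. The SE and p-values of that fit, printed below, therefore do not measure the spread of a gene's own 3 pairs. Calls were made in 9 of the 11 edgeR fits that shared the spread as strongly (prior degrees of freedom infinite or over 100) and in 0 of the 14 with a smaller prior. The values per tumour below are therefore the firmer description.

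Of the interferon genes Irf7, Mx1 and Ifit1 fell near fibroblasts, with the widest gaps between the arms in tumour 3. Irf7, the master regulator of type I interferon induction, stood at 1.4, 3.04 and 1.71 per 1000 transcripts in near cells of tumours 1, 2 and 3 and at 2.50, 4.56 and 9.75 in far cells. Each tumour had less Irf7 near, and the arms overlapped across tumours, since near cells of tumour 2 exceeded far cells of tumour 1. Its log2 near over far was -1.34 ± 0.35 (SE, 3 pairs; edgeR adjusted p = 0.00995). It was -1.63 (adjusted p = 0.729) without tumour 2 and -0.72 (adjusted p = 0.727) without tumour 3. When near and far cells were drawn in equal number from the squares that held both, the value was 0.06 (adjusted p = 0.939). Irf7 was also the only gene that passed with the same sign in 3 of 3 tumours and a level above the highest blank code in all of them.

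Mx1, a GTPase that blocks viral replication, stood at 0.148, 0.215 and 0.235 per 1000 near and 0.192, 0.407 and 3.62 far. Mx1 was lower near in each tumour, the far sums of tumours 1 and 2 held only 3 and 15 transcripts, and far cells of tumour 3 stood apart from all 5 other sums. The log2 difference was -2.14 ± 0.43 (edgeR adjusted p = 0.000102, n = 3 pairs), -0.79 (adjusted p = 0.819) without tumour 3 and -2.63 (adjusted p = 0.729) without tumour 2. Ifit1, which binds foreign RNA caps, stood at 0.245, 0.255 and 0.25 near and 0.320, 0.625 and 1.69 far. All 3 far sums exceeded all 3 near sums, and the far sums rested on 5, 23 and 29 transcripts. Its log2 difference was -1.67 ± 0.38 (edgeR adjusted p = 0.0013, n = 3 pairs), -0.99 (adjusted p = 0.477) without tumour 3 and -1.76 (adjusted p = 0.729) without tumour 2. Without tumour 2 the differences of Irf7, Mx1 and Ifit1 were thus larger in size. The prior degrees of freedom of that fit were 2.85 in place of infinite. The highest blank code lay between 0.525 and 0.690 per 1000 in the 6 sums, so Mx1 and Ifit1 were under the level of the highest blank code in all near sums, and also in far cells of tumour 1, for Mx1 in far cells of tumour 2 too.

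Of the 10 interferon genes tested, 3 fell, 0 rose and 6 were lower near in 3 of 3 tumours, where 13.3% of all genes tested were. Their median log2 difference was -0.90, against -0.08 over all genes, and in other tumour cells the median of the list was -0.55. In basal keratin cells 3 of the 10 had a total over both arms above the highest blank code in all 3 tumours. Of all genes tested 104 did. The other members of the list therefore did not clear the blank codes in every tumour. Summed over the list, the level was 8.06, 10.7 and 10.2 per 1000 near and 10.8, 13.3 and 27.4 far. Isg15, a ubiquitin-like modifier, stood at 0.343, 1.03 and 0.564 near and 0.384, 1.52 and 3.04 far, with a log2 difference of -1.18 ± 0.41 that did not pass (edgeR adjusted p = 0.0908, n = 3 pairs) and that was 0.68 in equal cells per square. Cxcl10, a T-cell attracting chemokine, had -1.38 ± 0.78 and Ifit3 -0.56 ± 0.50, neither past the threshold. H2-K1, a class I antigen-presenting molecule induced by interferon, stood at 5.31, 4.07 and 3.01 near and 7.18, 6.27 and 3.74 far, lower in each tumour, with -0.49 ± 0.33 (edgeR adjusted p = 0.653, n = 3 pairs).

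**Figure D2:**
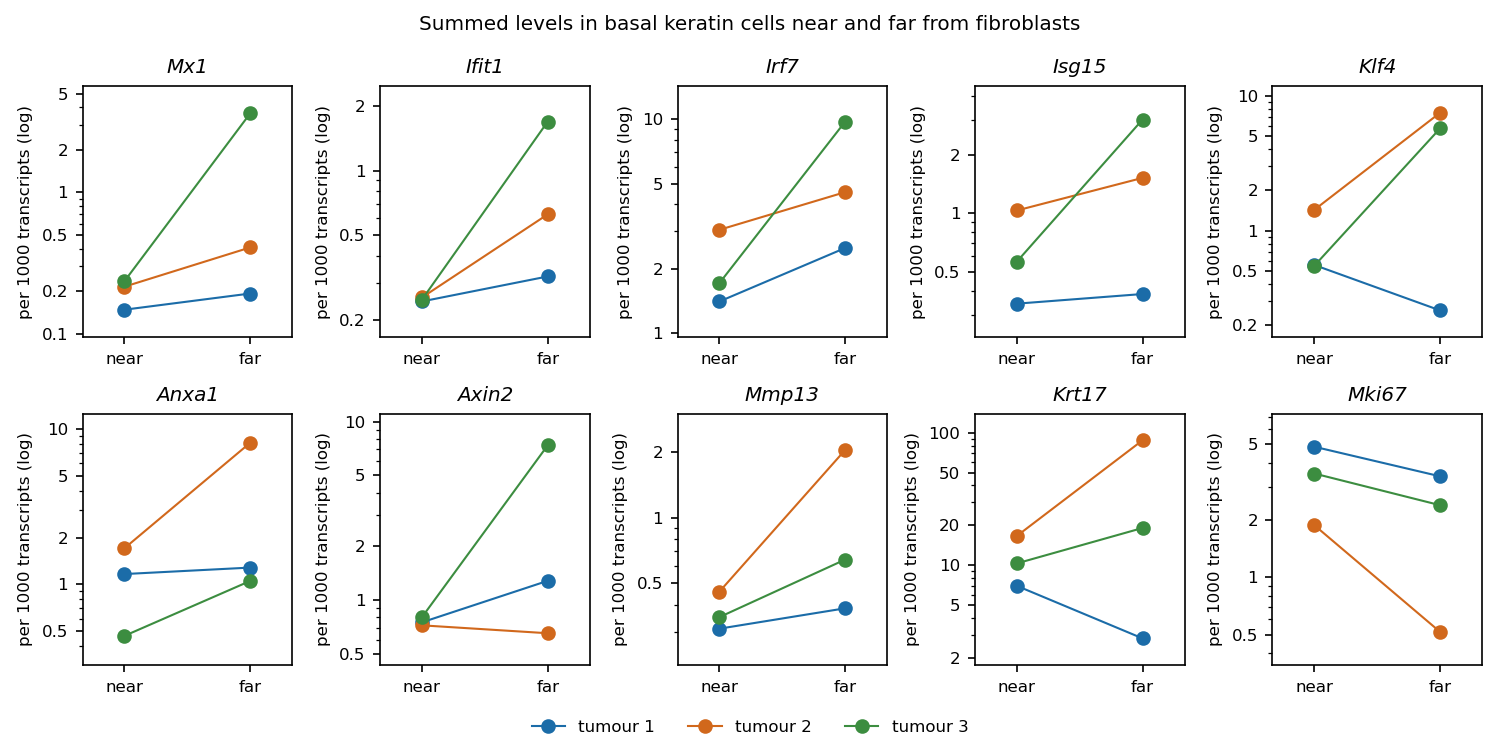
Level of 10 genes, per 1000 panel transcripts on log axes, in the summed near and far basal keratin cells, with 1 line per tumour. Far cells of tumour 3 (green) lead in Mx1, Ifit1, Irf7, Isg15 and Axin2, and far cells of tumour 2 (orange) in Anxa1, Mmp13 and Krt17. Mki67 runs the other way in 3 of 3 tumours.

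The promoters of some interferon genes hold a known response element, and 4 of them are printed to show it. The interferon-stimulated response element was searched as 2 copies of GAAA with any 2 bases between them, on both strands, overlapping matches allowed, in the 250 bases before the start site (RefSeq, GRCm38.p6). It was found in 978 of 32851 promoters (2.98%) and in 12 of the 183 panel genes that matched the table. Of the 9 interferon genes that matched 4 held it, Cxcl10, Ifit1, Ifit3 and Isg15, and 5 did not, Cd274, Cxcl9, Irf1, Irf7 and Irf9. Among the 7 genes that fell, 6 matched and 2 held it, Ifit1 and Mmp13. Capitals mark the matches in the sequences printed, which show how closely the copies lie together in Isg15 and Ifit1. They are from chr19:34640770-34640828 (plus strand) for Ifit1, chr4:156200860-156200911 (minus strand) for Isg15, chr5:92349078-92349117 (minus strand) for Cxcl10 and chr19:34583358-34583431 (plus strand) for Ifit3.
Ifit1: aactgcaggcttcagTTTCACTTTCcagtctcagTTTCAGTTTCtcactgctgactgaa
Isg15: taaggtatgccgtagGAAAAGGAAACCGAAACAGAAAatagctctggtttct
Cxcl10: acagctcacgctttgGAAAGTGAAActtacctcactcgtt
Ifit3: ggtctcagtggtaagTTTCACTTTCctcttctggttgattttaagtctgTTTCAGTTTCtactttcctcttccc
The matches lie 76 to 104 bases before the start site in Ifit1, 57 to 78 in Isg15, 204 to 213 in Cxcl10 and 113 to 156 in Ifit3. Isg15 has 3 overlapping copies and Cxcl10 has 1. A match of letters is a description of the promoter, not a measured site.

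Among cells up to 150 µm away Irf7 and Mx1 were highest at 75 to 150 µm, and in tumour 3 both were already higher at 50 to 75 µm than within 15 µm. Irf7 stood at 1.39, 3.06 and 1.53 per 1000 in basal keratin cells within 15 µm of a fibroblast in tumours 1, 2 and 3. At 25 to 50 µm it stood at 1.49, 2.61 and 1.64, at 50 to 75 µm at 1.47, 2.34 and 2.41, and at 75 to 150 µm at 2.04, 4.44 and 7.66. The highest level of each tumour came in the last of these steps. Mx1 in tumour 3 went from 0.178 within 15 µm to 0.395 at 50 to 75 µm and 2.72 at 75 to 150 µm. With cells between 25 and 75 µm in place of the far arm, the log2 difference was -0.02 for Irf7, -0.04 for Mx1 and 0.07 for Ifit1 (edgeR adjusted p = 0.974, 0.974 and 0.899, n = 3 pairs). Beyond 150 µm only 12, 10 and 13 cells were left.

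**Figure D3:**
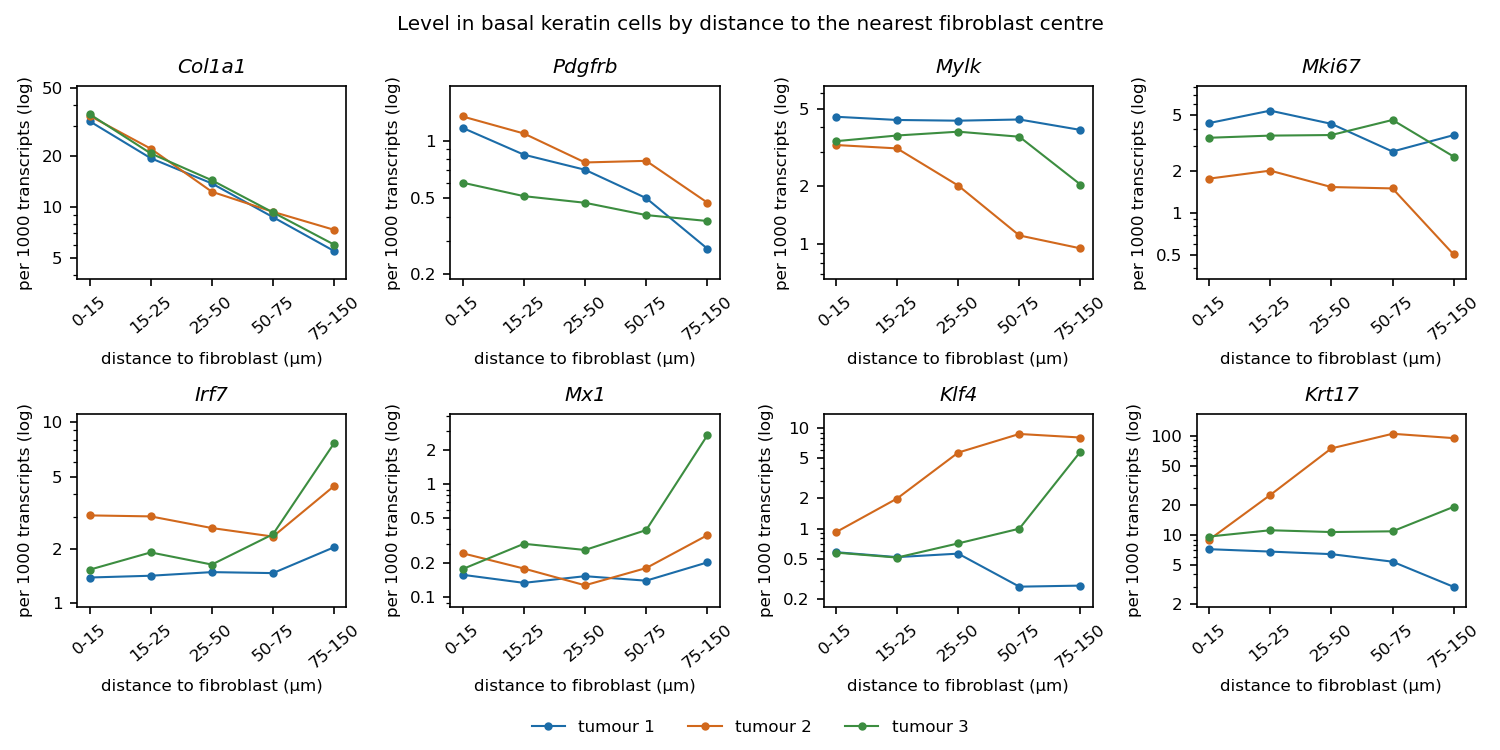
Level of 8 genes per 1000 transcripts (log axes) in basal keratin cells, by distance in µm to the nearest fibroblast centre, with 1 line per tumour. Col1a1 declines with distance in all 3 tumours. Irf7 and Mx1 are highest at 75 to 150 µm in each tumour. Krt17 and Klf4 climb up to 75 µm in tumour 2, Klf4 also climbs from 25 µm on in tumour 3, and both are lower at 75 to 150 µm than within 15 µm in tumour 1.

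The interferon transcripts were spread unevenly over the far cells. In tumour 3, 34.9% of far cells had an Irf7 transcript against 12.6% of near cells, and 12.7% had an Mx1 transcript against 1.91%. In tumour 2 the Irf7 shares were 20.6% and 22.1%, and in tumour 1 18.4% and 14.2%. A single far cell of tumour 3 held 18 of its 62 Mx1 transcripts, and a single square held 40.3% of them. In tumour 1, 64.1% of the 39 far Irf7 transcripts lay in 1 square. Leaving out the square with the most far cells in each tumour gave -1.03 for Irf7 and -2.22 for Mx1 (edgeR adjusted p = 0.421 and 0.274, n = 3 pairs).

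Klf4 and Anxa1 were high in far cells of tumour 2. Klf4 stood at 0.556, 1.43 and 0.550 per 1000 near and 0.256, 7.47 and 5.72 far. It was lower near in tumours 2 and 3 and higher near in tumour 1, where the far sum held 4 transcripts. Klf4 was under the level of the highest blank code in near cells of tumours 1 and 3 and in far cells of tumour 1. The log2 difference was -2.05 ± 0.41 (edgeR adjusted p = 0.000102, n = 3 pairs), -1.62 (adjusted p = 0.738) without tumour 2 and -1.20 (adjusted p = 0.429) without tumour 3. It was the single gene of the 7 that passed with equal cells per square (-1.09, adjusted p = 0.0212). Anxa1, which has anti-inflammatory roles, stood at 1.16, 1.71 and 0.466 near and 1.28, 8.15 and 1.05 far. In near cells of tumour 3 Anxa1 was under the level of the highest blank code. Its difference of -1.29 ± 0.39 (edgeR adjusted p = 0.0433, n = 3 pairs) rested mainly on tumour 2, without which it was -0.56 (adjusted p = 0.729). It was -1.32 (adjusted p = 0.273) without tumour 3. Beyond 150 µm its sign turned (0.26).

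Krt17, a keratin of stressed and wound-edge epithelium, showed the same tumour 2 pattern. It stood at 7.01, 16.7 and 10.4 per 1000 near and 2.82, 87.7 and 19.1 far. Tumour 1 ran opposite to tumours 2 and 3. The log2 difference of -0.78 ± 0.30 did not pass (edgeR adjusted p = 0.151, n = 3 pairs). It was -1.65 (adjusted p = 1.9e-06) without tumour 1 and 0.23 without tumour 2. Krt17 alone made up at least 10% of transcripts in 39.1% of the far cells of tumour 2, 33.1% of its cells in neither arm and 9.13% of its near cells. In tumours 1 and 3 that share was at most 4.22% in any arm. With distance in tumour 2, Krt17 went from 8.95 per 1000 within 15 µm to 25.3 at 15 to 25 µm, 74.9 at 25 to 50 µm and 105 at 50 to 75 µm, and Klf4 from 0.922 to 1.99, 5.69 and 8.71. The climb in tumour 2 thus began within the near arm. In tumour 3 Klf4 went from 0.517 at 15 to 25 µm to 0.714 at 25 to 50 µm and 5.82 at 75 to 150 µm. In tumour 2 the square with the most far transcripts of each gene held 51.4% of them for Krt17, 48.0% for Klf4 and 56.0% for Anxa1.

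Axin2 and Mmp13 each rested on 1 tumour. Axin2, a direct Wnt target that restrains the pathway, stood at 0.750, 0.722 and 0.801 per 1000 near and 1.28, 0.652 and 7.36 far. Near levels were alike in the 3 tumours, and only the far cells of tumour 3 were far from them. The log2 difference was -1.35 ± 0.41 (edgeR adjusted p = 0.0433, n = 3 pairs), -0.32 (adjusted p = 0.963) without tumour 3, -2.01 (adjusted p = 0.729) without tumour 2, -1.64 (adjusted p = 0.14) without tumour 1 and 0.21 in equal cells per square. Mmp13 stood at 0.310, 0.458 and 0.350 near and 0.384, 2.04 and 0.642 far. Its level was under that of the highest blank code (0.525 to 0.690 per 1000) in all near sums and in far cells of tumour 1. The log2 difference was -1.30 ± 0.40 (edgeR adjusted p = 0.0433, n = 3 pairs), -0.54 (adjusted p = 0.729) without tumour 2, -1.49 (adjusted p = 0.273) without tumour 3 and -1.61 (adjusted p = 0.104) without tumour 1, and it turned to 1.51 against cells beyond 150 µm and 0.13 against the 25 to 75 µm ring. A single cell held 19 of the 75 far Mmp13 transcripts of tumour 2.

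No gene of the basal and myoepithelial lineage passed. Of the 6 tested, 0 rose and 0 fell, and their median log2 difference was -0.59, against -0.08 over all genes. Mylk was the 1 member with a value above 0, at 4.46, 3.18 and 3.51 near against 3.91, 0.923 and 1.93 far, higher near in each tumour (0.90 ± 0.36, edgeR adjusted p = 0.174, n = 3 pairs). Trp63 stood at 4.0, 5.49 and 3.72 near and 4.68, 7.39 and 3.09 far, with a log2 difference of -0.17 ± 0.33 whose sign changed between settings. Acta2, smooth muscle actin, stood at 1.33, 1.78 and 0.726 near and 1.86, 1.14 and 1.93 far (-0.43 ± 0.39), also of changing sign. Tagln, an actin-binding protein, had -0.76 ± 0.39 and the cytokine Il17b -0.81 ± 0.39. The spread between tumours was larger than the difference for Trp63 and Acta2.

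Wnt, Notch and TGF-beta genes beside Axin2 did not pass. Of the 14 Wnt receptors, feedback genes and TCF/LEF factors, 1 fell and 0 rose (median -0.14). None of the 5 Wnt antagonists passed (median 0.18). Among them Sfrp2, a secreted Wnt-binding protein, stood at 1.36, 1.46 and 1.23 near and 0.769, 0.380 and 0.759 far, so that all 3 near sums exceeded all 3 far sums, with a difference of 1.14 ± 0.41 (edgeR adjusted p = 0.13, n = 3 pairs). The Notch ligands (5 tested, median 0.06) and the TGF-beta and BMP genes (12 tested, median -0.13) had 0 members past the threshold. Jag2, a Notch ligand of basal cells, stood at 11.9, 12.9 and 8.05 near and 8.39, 7.98 and 7.82 far (0.39 ± 0.30). Pmepa1, a TGF-beta target that restrains the pathway, stood at 33.3, 41.6 and 42.9 near and 30, 23.4 and 33.7 far (0.42 ± 0.25, edgeR adjusted p = 0.508, n = 3 pairs). Both were higher near in 3 of 3 tumours, as were 43 of the 249 genes (17.3%).

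Proliferation genes were higher near in each tumour without passing the test. Mki67, a marker of cycling cells, stood at 4.86, 1.88 and 3.51 near and 3.40, 0.516 and 2.39 far (0.91 ± 0.36, edgeR adjusted p = 0.175, n = 3 pairs). Ccnd1, the G1 cyclin, stood at 17.3, 8.12 and 12.7 near and 11, 4.89 and 9.57 far (0.57 ± 0.30), and Top2a, a replication topoisomerase, at 1.72, 0.799 and 1.29 near and 1.03, 0.570 and 1.23 far (0.40 ± 0.40). The list's summed level was 23.8, 10.8 and 17.5 near and 15.4, 5.97 and 13.2 far, and its median log2 difference was 0.57 over 3 genes. In other tumour cells the median of the list was 0.45. Of all genes tested in basal keratin cells 17.3% were higher near in 3 of 3 tumours.

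No stress or inflammatory gene passed. Of 8 immediate early and stress genes 7 had a negative value (median -0.29, against -0.08 over all genes). Dusp1, a phosphatase induced by stress, stood at 0.904, 0.657 and 0.810 near and 1.35, 1.85 and 1.93 far. All 3 far sums exceeded all 3 near sums, and the difference of -1.15 ± 0.39 had an edgeR adjusted p of 0.0846 (n = 3 pairs). Of 19 inflammatory genes 12 had a negative value, with a median of -0.10 that was close to that of all genes. Slpi, a protease inhibitor of epithelia, stood at 2.53, 8.55 and 3.37 near and 5.96, 15.3 and 3.79 far (-0.78 ± 0.32). Cd44, a hyaluronan receptor, stood at 1.21, 2.70 and 1.5 near and 1.15, 4.92 and 3.04 far (-0.67 ± 0.36). Prrx1, a mesenchymal transition factor, stood at 0.275, 0.243 and 0.214 near and 0.833, 0.516 and 0.234 far (-1.08 ± 0.41, edgeR adjusted p = 0.151, n = 3 pairs), all at or under the level of the highest blank code save far cells of tumour 1. Gata3, the luminal factor, stood at 25.1, 22.7 and 21.6 near and 23.6, 14.4 and 15.1 far (0.39 ± 0.27).

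No marker of neighbouring fibroblasts passed between the arms. Col1a1, which the gate used and which was not tested, stood at 26.2, 28.6 and 28.4 per 1000 near and 5.19, 7.36 and 5.78 far. It declined with each step of distance in each tumour, from 32.0, 34.4 and 35.2 within 15 µm to 5.51, 7.35 and 6.01 at 75 to 150 µm. Among 9 other fibroblast markers 9 had values above 0, 5 were higher near in 3 of 3 tumours, and 0 passed. Of all genes tested 17.3% were higher near in 3 of 3 tumours. The median of the 9 was 0.44, against -0.08 over all genes, and in other tumour cells it was 1.02. In basal keratin cells 3 of the 9 had a total over both arms above the highest blank code in all 3 tumours. Sparc and Postn belong to this list and to the matricellular one. The list's summed level was 58.3, 87.6 and 64.5 per 1000 near and 48.2, 47.8 and 64.8 far, higher near in tumours 1 and 2 and alike in tumour 3. With a fibroblast profile scaled to Col1a1 subtracted from each sum, the log2 differences were about as large (Mx1 -2.15, Ifit1 -1.66, Irf7 -1.27, Klf4 -2.10), and 0 genes passed, with the prior degrees of freedom at 13.4 in place of infinite. In cells with no fibroblast marker transcript 93 genes could be tested, 0 passed, the prior was 3.61, and Irf7 had -1.24 and Klf4 -1.43.

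Lrrc15, a marker of myofibroblastic tumour fibroblasts, stood at 0.944, 0.458 and 0.560 near and 0.577, 0.163 and 0.117 far (1.30 ± 0.44, edgeR adjusted p = 0.0846, n = 3 pairs). Pdgfrb, a receptor of pericytes and fibroblasts, stood at 1.02, 1.22 and 0.560 near and 0.256, 0.434 and 0.409 far (1.28 ± 0.43, edgeR adjusted p = 0.0846, n = 3 pairs). Pdgfrb was under the level of the highest blank code (0.525 to 0.690 per 1000) in all far sums and in near cells of tumour 3. Lrrc15 was under it in both arms of tumours 2 and 3 and level with it in far cells of tumour 1. Thy1 had 1.42 ± 0.65 and Pi16 0.91 ± 0.45, both with few far transcripts. Scaling the fibroblast profile to the surplus of Col1a1 in near cells gave a calculated surplus of 0.412, 0.303 and 0.246 per 1000 for Pdgfrb in tumours 1, 2 and 3, where the measured near minus far was 0.762, 0.786 and 0.151. For Lrrc15 the calculation gave 0.409, 0.159 and 0.173, and the measured differences were 0.367, 0.295 and 0.443. Other markers departed from it. In tumour 3 Sparc, Mmp2, Dpt, Clec3b and Cdh11 had measured differences of -4.03, -0.20, -0.027, -0.070 and -0.022 against calculated values above 0, and in tumour 2 Sparc had 19.1 against 3.51.

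Matricellular genes, whose secreted products bind matrix and receptors, had a median of 0.44 over 7 genes, and 0 passed. Fn1, fibronectin, stood at 3.46, 1.76 and 3.29 near and 2.05, 0.597 and 2.69 far (0.82 ± 0.37). Tnc, tenascin C, stood at 4.87, 10.5 and 6.08 near and 1.60, 12.1 and 2.80 far (0.76 ± 0.33), with tumour 2 opposite to the others. The surplus of Tnc in near cells was 3.27 and 3.28 per 1000 in tumours 1 and 3, where the calculation from Col1a1 gave 0.639 and 0.737, and in tumour 2 it was -1.64 against 0.737. Postn, periostin, stood at 18.3, 36.4 and 20.4 near and 17.0, 17.3 and 17.4 far (0.44 ± 0.27), and its surplus in tumour 2 of 19.2 compared with 1.10 by the same calculation. Sparc, a collagen-binding protein, stood at 35.7, 46.6 and 41.3 near and 28.1, 27.5 and 45.3 far (0.30 ± 0.24). Col4a1, a basement membrane collagen, stood at 14.6, 15.9 and 11.6 near and 24.5, 9.86 and 24.8 far (-0.42 ± 0.28), with tumour 2 again opposite.

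Markers of other cell types stayed low. The 2 endothelial markers summed to 0.661 to 1.14 per 1000 near and 0.467 to 0.705 far, the 4 macrophage markers to 2.01 to 3.72 near and 2.10 to 2.88 far, and 0 of either list passed. Of 13 T and NK cell genes tested 0 passed (median 0.36), each with few transcripts. Cd36, a fatty acid transporter of adipocytes and endothelium, stood at 0.301, 0.316 and 0.218 near and 0.641, 0.679 and 0.350 far (-1.02 ± 0.40, edgeR adjusted p = 0.173, n = 3 pairs).

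The change between near and far was also set against that of other tumour cells of the same sections. Tested as an interaction with edgeR, the difference between the classes passed in 0 of 254 genes (0%), with 14 at an unadjusted p under 0.05. DESeq2 called 1, Cd36, at -1.24. By smallest p the first 10 were Cd36, Tox, Gzmb, Il1r1, Trp63, Slpi, Adgre1, Fabp5, Id1 and Tead2, with adjusted p from 0.474 to 0.833. The far levels of Cd36 in basal keratin cells rested on only 10, 25 and 6 transcripts. In other tumour cells it stood at 0.328, 0.294 and 0.226 near and 0.247, 0.249 and 0.199 far. Near levels were alike in both classes and far levels were higher in basal keratin cells, and the classes differed by -1.14 ± 0.25 (edgeR adjusted p = 0.474, n = 3 pairs). Trp63 in other tumour cells stood at 1.29, 2.05 and 1.02 near and 0.830, 0.765 and 0.501 far, higher near in each tumour (0.99 ± 0.25, edgeR adjusted p = 0.160, n = 3 pairs). The basal keratin value minus the other value was -1.05 ± 0.35 for Trp63 (edgeR adjusted p = 0.742, n = 3 pairs). In other tumour cells alone 0 of 254 passed (0%), with 48 at an unadjusted p under 0.05. Mx1 stood at 0.294, 0.786 and 1.16 near and 0.268, 1.70 and 3.38 far in other tumour cells, a log2 difference of -0.88 ± 0.38 against -2.14 in basal keratin cells. Irf7 had -0.52 ± 0.24 there, Klf4 -1.02 ± 0.26, Ifit1 -0.84 ± 0.22 and Axin2 -0.69 ± 0.52. All 7 genes had a value below 0 in both classes. The basal keratin value minus the other value was -1.06 ± 0.96 for Mx1, -0.86 ± 0.95 for Klf4 and -0.70 ± 0.57 for Irf7 (edgeR adjusted p = 0.981 for each, n = 3 pairs), so no difference between classes was shown for them. Far levels of Irf7 in other tumour cells were 3.99, 12.6 and 13.7 per 1000, highest in tumours 2 and 3, with near levels of 3.71, 9.83 and 6.84.

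**Figure D4:**
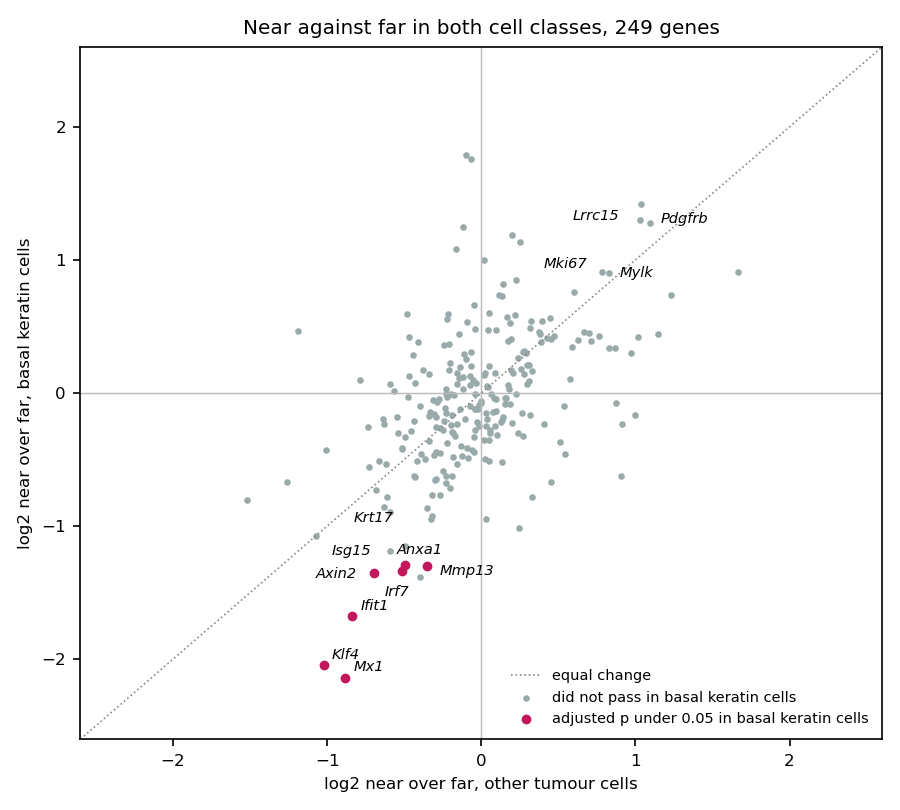
Log2 near over far of 249 genes in basal keratin cells (y) and in other tumour cells (x), with the line of equal change dotted. The 7 genes that passed in basal keratin cells (magenta) lie below 0 on both axes, and Lrrc15, Pdgfrb, Mki67 and Mylk lie above 0 on both.

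Values just inside and just outside the limits of the rule follow. Cells just below the keratin limit (9 to 10% of transcripts) were near a fibroblast in 63.8%, 56.1% and 51.0% and carried Irf7 at 1.89, 5.29 and 2.99 per 1000. Cells just above it (10 to 11%) were near in 64.9%, 51.5% and 54.1% and carried Irf7 at 1.98, 4.30 and 2.48. Basal keratin cells 20 to 25 µm from a fibroblast had 1.52, 3.30 and 1.92 per 1000 of Irf7 and those at 25 to 30 µm 1.46, 2.69 and 1.49. At 70 to 75 µm Irf7 stood at 2.01, 3.37 and 3.65 and at 75 to 80 µm at 1.03, 4.92 and 4.47, from 4 to 38 transcripts in each sum. Across that limit Krt17 went from 8.03 (48 transcripts) to 0.775 (3) in tumour 1, from 102 to 89.2 in tumour 2 and from 15.2 to 11.2 in tumour 3. Col1a1 went from 3.18 to 4.91, from 8.70 to 6.34 and from 8.08 to 4.10. Across the keratin limit Krt17 went from 3.86 to 4.16, from 17.6 to 29.4 and from 7.89 to 8.50.

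**Figure D5:**
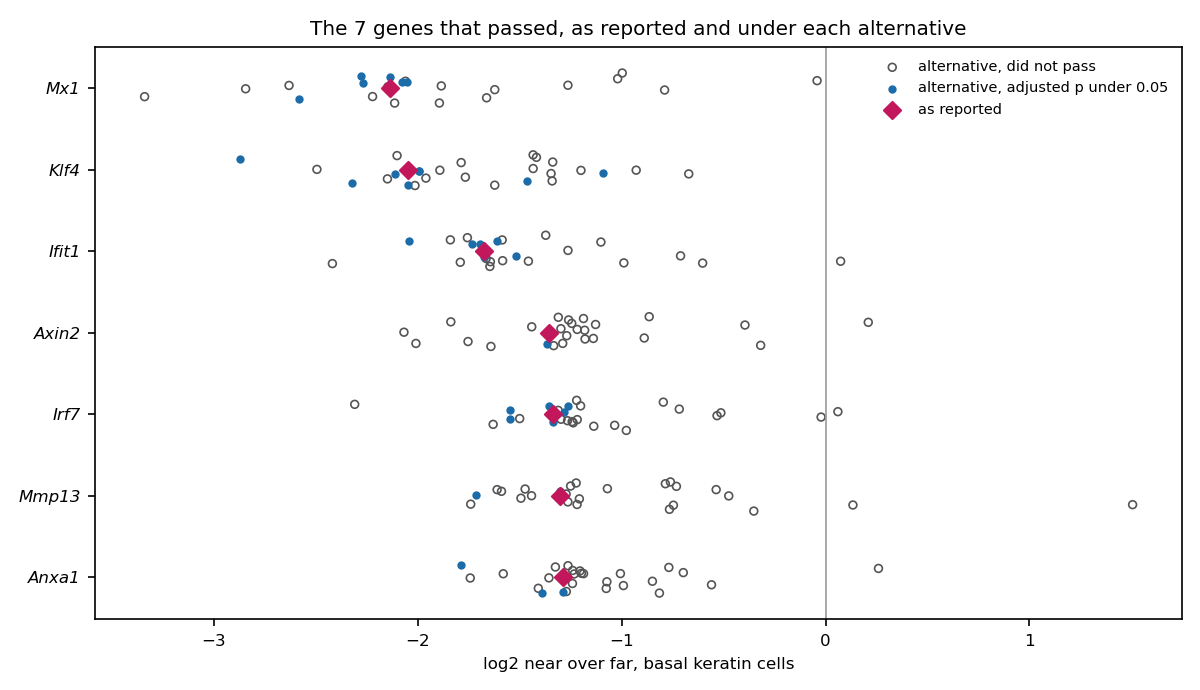
Log2 near over far of the 7 genes that passed, as reported (diamonds) and under each alternative setting (filled where the adjusted p was under 0.05, open otherwise). Most alternatives stay below 0 without passing, and Ifit1, Axin2, Irf7, Mmp13 and Anxa1 each cross 0 in at least 1 setting.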

How the data were processed

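MERSCOPE data of 3 tumours were used. The authors deposited raw transcript counts per cell and gene, with blank codes, and per the file headers a cell table with centres, a transcript count and volume, which is a size signal per cell. Per the submitters' processing notes Scanpy 1.9.3 was used, with a role not given in the sources used here, as are segmentation settings. The design text names 265 genes and the tables hold 258. Panel counts of cells with at least 20 transcripts were summed per tumour and arm and tested with edgeR 4.0.16 (filterByExpr, TMM, tumour as block, quasi-likelihood, Benjamini-Hochberg over non-gate genes, threshold 0.05) in R 4.3.3. The pairing is by section: both arms come from the same tumour. DESeq2 1.42.0 and limma 3.58.1 (log2 of the mean share per 1000 plus 0.1) were alternatives, and the edgeR script was tested on simulated data. Genes named were the gate genes, called genes of 1 sign in all tumours and above the highest blank code (for the class comparison, called genes), up to 4 members of each list by smallest p and all basal lineage genes. Where under 5 genes passed, the 10 with the smallest p were named. Cxcl10, Ifit3 and Sparc were added after their values were seen. Members and lists were chosen with earlier results of these data known.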

Additional observations from a re-analysis of the deposited data

How the results depend on the processing

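Of the 26 alternatives 18 gave no call. The count of genes that fell was 0 without the replicate block that pairs both arms of a tumour, with library size alone, DESeq2, cell volume as offset, 15 against 50 µm, far limits of 150 and 50 µm, the 25 to 75 µm ring, at least 40 transcripts, keratin at least 20%, fibroblasts at 25% Col1a1, no fibroblast marker transcript, the fibroblast profile subtracted, cells weighted equally, blank codes added, and the fullest square left out. It was 4 with no filter on low counts or with limits on cell volume, 1 without an endothelial or macrophage cell within 75 µm and 3 with equal cells per square. Leaving out a tumour gave 0 to 6. Against 0, 2 genes rose at keratin 10% to under 20% and 1 with a basal neighbour. In the class comparison DESeq2 called 1 lower gene against 0. The blank, ring, far 50 µm and left-out square settings were added after seeing the data. Of 25 blank codes tested beside the genes 0 passed and 2 had an unadjusted p under 0.05. Their log2 values ran from -0.73 to 1.72. As 0 genes passed in that fit too, it cannot set the 7 calls against the blank codes.

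The log2 values that changed sign follow, and the cause was not tested. Against cells beyond 150 µm they were 0.26 for Anxa1, 1.51 for Mmp13, 1.29 for Krt17, 0.70 for Trp63, 0.24 for H2-K1, 0.42 for Cd44 and 0.90 for Slpi. Against the ring they were 0.074 for Ifit1, 0.13 for Mmp13, 0.063 for Il17b, 0.085 for Tagln, 0.30 for Acta2, 0.28 for Col4a1, 0.089 for Ifit3, -0.0148 for Gata3 and -0.077 for Jag2. With equal cells per square they were 0.061 for Irf7, 0.21 for Axin2, 0.68 for Isg15, 0.056 for H2-K1 and 0.071 for Slpi. At 15 against 50 µm they were 0.30 for Acta2 and 0.29 for Col4a1, and in the class comparison 0.20 for Ifit1 and 0.038 for Irf7. With far at 50 µm they were 0.17 for Acta2 and 0.13 for Col4a1. At keratin of at least 20% they were 0.32 for Acta2 and 0.027 for Trp63, and with a basal neighbour 0.22 for Acta2. Trp63 was 0.029 with the volume offset, 0.0032 with the profile subtracted and 0.041 without endothelial or macrophage cells nearby. Without fibroblast marker transcripts Tnc was -0.54 and Col4a1 0.68. With cells weighted equally Ifit3 was 0.35. Leaving out a tumour gave -1.65 to 0.23 for Krt17, -0.86 to 0.084 for Acta2, -0.34 to 0.10 for Trp63 and -1.04 to 0.33 for Ifit3.

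Depth limits the far arm: 15608 to 36824 transcripts per tumour stand against 246657 to 1070253 near. The typical 95% half-width of 0.78 on the log2 scale comes from a spread shared across genes. It does not measure the spread of a gene's own 3 pairs.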
